A study of Mus musculus with 30 samples.

Results

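The miR-26 and miR-30 families of the mouse comprise 9 microRNA (miRNA) genes, Mir26a-1, Mir26a-2, Mir26b, Mir30a, Mir30b, Mir30c-1, Mir30c-2, Mir30d and Mir30e, out of 2202 miRNA hairpins in the GENCODE M21 annotation. The genes were taken by name. A deposited small RNA sequence was assigned to them when its whole length matched one of these hairpins exactly on the sense strand, and its reads were kept by arm, library and length. All 9 genes had reads, which fell on 16 mature arms, because miR-26a-5p comes from 2 genes and so does miR-30c-5p.

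The libraries held small RNAs of 15 to 50 nucleotides (nt) cut from a gel, from prefrontal cortex of 6-month-old mice. Mice were hemizygous for the 5xFAD transgenes, called AD here, or were their wild-type (WT) littermates, of both sexes and on a C57BL/6J background. 5xFAD carries human transgenes under a neuronal promoter and is used as a model of the amyloid deposits of Alzheimer's disease. RNA was made into libraries directly (traditional-seq, 7 WT and 7 AD) or after enzyme treatment (PANDORA-seq, 8 WT and 8 AD), in which the kinase T4 PNK converts the RNA ends to ligatable ones and the demethylase AlkB takes off methyl groups that stop reverse transcriptase. Each library is a separate sample of its group in the labels, and p-values measure the spread between these libraries. Sample codes recur between the protocols, and whether equal codes mark the same mouse is not given in the labels. In whole tissue, fewer cells of a type and less RNA per cell cannot be told apart.

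A miRNA hairpin is cut by Dicer into a duplex whose 5p or 3p strand is loaded into an Argonaute protein. Bases 2 to 8 of the loaded strand, the seed, pair with target mRNAs, so miRNAs with the same seed form a family. Both families are abundant in brain, and miR-30 miRNAs are known regulators of differentiation and autophagy.

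The sequences are shown because the findings turn on the arm, the paralog and the last base of these RNAs. They are the RefSeq mature miRNAs of build GRCm38.p6, written 5′ to 3′ with the seed in capitals, and Mir30b and Mir30d are given by name only. The first group shares the miR-26 seed, UCAAGUA. It is miR-26a-5p of Mir26a-1 (chr9:119031811-119031832, + strand) and of Mir26a-2 (chr10:126995543-126995564, + strand), and miR-26b-5p of Mir26b (chr1:74394324-74394344, + strand), which differ by C11U and C21U counted from 1 at the 5′ end.
miR-26a-5p: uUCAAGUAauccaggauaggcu
miR-26b-5p: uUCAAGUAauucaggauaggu
The second group shares the miR-30 seed, GUAAACA. The strands shown come from Mir30a (chr1:23272274-23272295, + strand), from Mir30c-1 (chr4:120769584-120769606, - strand) and Mir30c-2 (chr1:23291714-23291736, + strand), and from Mir30e (chr4:120772660-120772681, - strand). miR-30a-5p and miR-30e-5p differ by C13U alone.
miR-30a-5p: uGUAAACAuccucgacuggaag
miR-30c-5p: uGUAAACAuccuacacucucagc
miR-30e-5p: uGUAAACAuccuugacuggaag
The 3p strands carry other seeds and would pair with other targets. miR-30a-3p and miR-30e-3p share a seed and differ by G18A, and the miR-30c pair shares another and differs by G9A, U12C and C22U. miR-26a-2-3p shares its seed with miR-26b-3p.
miR-30a-3p: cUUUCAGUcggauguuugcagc
miR-30e-3p: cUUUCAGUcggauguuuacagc
miR-30c-1-3p: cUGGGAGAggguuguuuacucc
miR-30c-2-3p: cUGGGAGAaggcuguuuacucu
miR-26a-2-3p: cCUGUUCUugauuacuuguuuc
miR-26b-3p: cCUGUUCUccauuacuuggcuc
In the GENCODE annotation Mir26a-1 and Mir26b lie on the sense strand in introns of the phosphatase genes Ctdspl and Ctdsp1, and Mir26a-2 lies in Ctdsp2, where at least 1 transcript has it in an exon. Mir30c-1 and Mir30e lie in introns of Nfyc, which encodes a subunit of the transcription factor NF-Y, Mir30c-2 lies in an exon of at least 1 transcript of the lincRNA gene Gm27028, and Mir30a lies in no other annotated gene. Mir30a and Mir30c-2 lie 19361 bases apart on chromosome 1, and Mir30c-1 and Mir30e lie 2983 bases apart on chromosome 4.

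The libraries differed in depth and in what they held. Traditional-seq libraries had 9370669 to 17053412 reads, of which miRNA hairpins took 35.9% to 50.3%, and PANDORA-seq libraries had 54926347 to 105876141 reads, of which they took 1.51% to 5.54%. The families were covered by 184828 to 427981 reads per traditional-seq library and 15351 to 86888 reads per PANDORA-seq library. Levels are given below as CPM, the usual depth-scaled count, with the miRNA hairpin reads of the library as the total, and compare arms of near-equal length; any floor covers counting error only. The neuronal miRNAs miR-124, miR-9, miR-128 and miR-138 summed to 192064 to 444059 CPM in traditional-seq and 48402 to 122668 CPM in PANDORA-seq, so that the labelled tissue had its markers. The liver miRNA miR-122, which brain should lack, was at 28.1 to 2088 CPM in traditional-seq and 1709 to 7663 CPM in PANDORA-seq, and its part in the results was not tested.

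Together the 9 genes gave a median of 6.84% of miRNA reads in traditional-seq (range 4.30% to 8.48%) and 2.02% in PANDORA-seq (1.55% to 2.998%). The miR-26 family held 1.43%, 2.82% and 4.03% of miRNA reads (lowest, median, highest) in the 14 traditional-seq libraries and 0.361%, 0.547% and 1.103% in the 16 PANDORA-seq libraries. The miR-30 family held 2.40%, 3.66% and 5.58% in traditional-seq and 1.06%, 1.51% and 2.25% in PANDORA-seq. Every PANDORA-seq library was below every traditional-seq library for both families on this scale. How many of all miRNAs were separated in this way was not counted. The neuronal miRNAs given above were also lower in every PANDORA-seq library, and the ranges of miR-122 overlapped. Against all sequenced reads the gap of both families was wider. Medians for miR-26 were 10541 RPM (with all reads as the denominator) in traditional-seq and 161 RPM in PANDORA-seq. For miR-30 they were 15151 and 387 RPM.

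Within the miR-26 family miR-26a-5p took nearly everything in either protocol, and within the miR-30 family no paralog did. In traditional-seq miR-26a-5p was ninth of 2351 miRNA features at 14036, 27596 and 39428 CPM (lowest, median, highest). miR-30d-5p followed at 11130, 16646 and 23139 CPM and miR-30a-5p at 5706, 11102 and 20865 CPM. In each of the 14 libraries miR-26a-5p was above miR-30d-5p, which was above miR-30a-5p, although the ranges over libraries overlapped.

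miR-30c-5p came next with a median of 3980 CPM, above miR-30e-5p in 14 of 14 libraries. The following arms were not separated so clearly. miR-30e-5p had a median of 1762 CPM and its own 3p strand, miR-30e-3p, 1685 CPM, and the 5p strand was the higher one in 8 of 14 libraries. miR-30a-3p had a median of 1257 CPM and miR-26b-5p 524 CPM. Below them stood miR-30c-2-3p at 160 CPM, miR-30b-5p at 111 CPM and miR-30b-3p at 26.9 CPM, and the other 3p strands had medians under 10 CPM.

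In PANDORA-seq the order changed. miR-30d-5p led with 3105, 6659 and 10489 CPM and was above miR-26a-5p (3401, 5240 and 10736 CPM) in 12 of 16 libraries. miR-30c-5p was at 1274, 2900 and 4944 CPM, and it was above the fourth member, miR-30a-3p at 1544, 2580 and 3367 CPM, in 12 of 16. miR-30a-5p dropped to sixth at 504, 842 and 1183 CPM, below both miR-30a-3p and miR-30e-3p in their medians. The median of miR-26a-2-3p was 43.2 CPM and that of miR-30c-1-3p 41.8 CPM, and the former was higher in 9 of 16 libraries.

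The rarest strands were near the limit of detection. miR-26a-1-3p had no read in 8 of 14 traditional-seq and 10 of 16 PANDORA-seq libraries, where a count of 0 allows, at 3 reads, up to 0.423 to 0.773 CPM and 0.825 to 3.62 CPM depending on the library. miR-26b-3p had a median of 0.246 CPM in traditional-seq and 3.003 CPM in PANDORA-seq. Neither passed the filter on low counts in the comparisons of genotype or of protocol, which therefore cover 14 of the 16 arms.

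**Figure D1:**
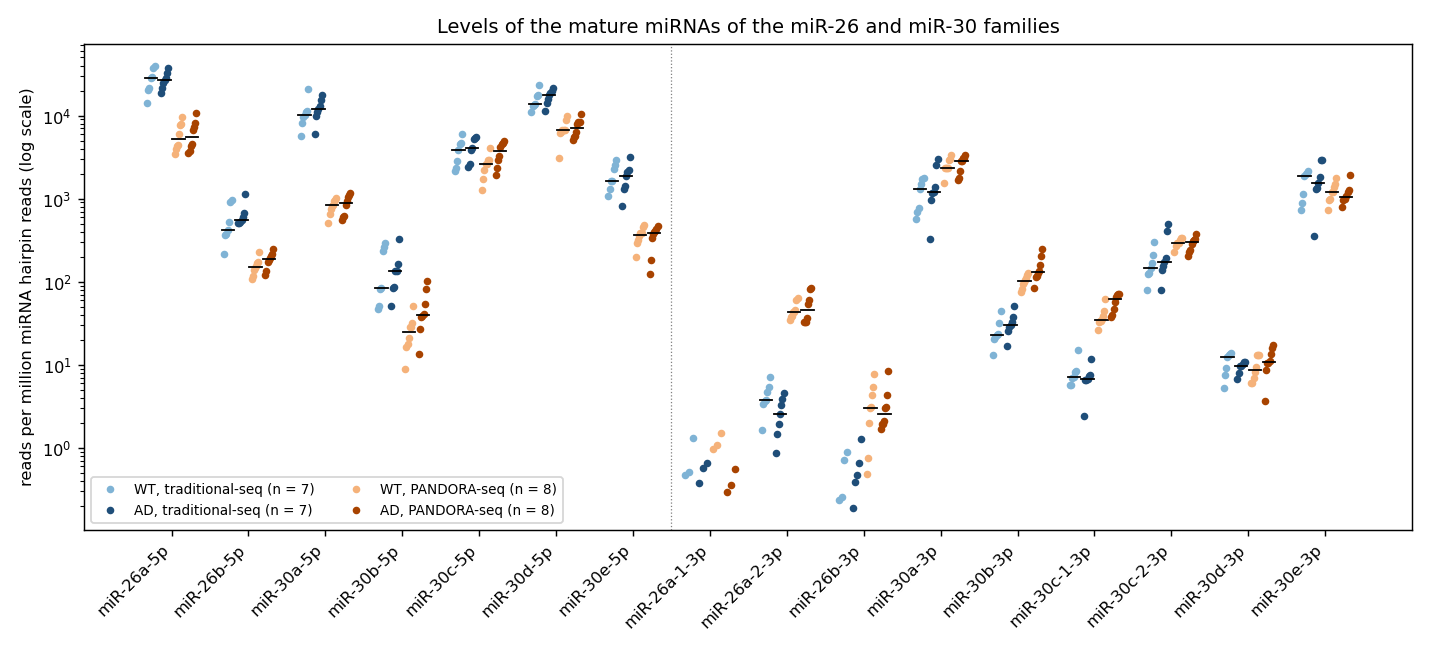
Level of each of the 16 mature arms in CPM of miRNA hairpin reads (log axis), with 1 point per library, lines at group medians, and libraries at 0 not drawn. The 5p arms, left of the dotted line, have lower medians over all PANDORA-seq libraries (orange) than over all traditional-seq libraries (blue). Of these, miR-26b-5p, miR-30b-5p and miR-30c-5p overlap between protocols. miR-26a-2-3p, miR-30b-3p and miR-30c-1-3p sit higher in every PANDORA-seq library, and such separation was not counted over all miRNA features.

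The seed of a family is shared, so its 5p reads were counted by paralog. How the makeup of the reads relates to that of the molecules in the tissue was not tested. miR-26a-5p made up a median of 97.9% of miR-26 5p reads in traditional-seq and 97.1% in PANDORA-seq. Of the miR-30 5p reads miR-30d-5p supplied a median of 48.7% without the enzymes and 61.9% after them. For miR-30a-5p it was 32.6% and 7.62% in the same order, and that of miR-30c-5p 11.7% and 26.5%. miR-30e-5p, which differs from miR-30a-5p by C13U alone, went from 5.62% to 3.40%, and miR-30b-5p supplied 0.334% and 0.288%. The reads that carry the miR-30 seed therefore came mostly from miR-30d-5p and miR-30a-5p in one protocol and from miR-30d-5p and miR-30c-5p in the other.

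The first comparison asked whether the families differed between AD and WT cortex in traditional-seq. No arm did. All 459 miRNA features that passed the filter were tested with edgeR's quasi-likelihood test and the Benjamini-Hochberg adjustment, none was called at an adjusted p under 0.05 (0.0%), and an unadjusted p under 0.05 was found for 8 (1.74%). DESeq2 and the likelihood ratio test of edgeR also called 0. Of the 14 arms tested 0 were called and 0 had an unadjusted p under 0.05. Their median log2 fold change was 0.14, against -0.03 over all features. Without AD traditional-seq replicate 2 this median was 0.04 and 1 arm had an unadjusted p under 0.05, and without WT replicate 3 they were 0.08 and 1.

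The abundant arms lay close together in this comparison. miR-26a-5p was at 14036, 28492 and 39428 CPM in WT (lowest, median, highest) and 18476, 26832 and 37810 CPM in AD, a log2 fold change of -0.01 ± 0.26 (SE). miR-30d-5p was at 11130, 13834 and 23139 CPM in WT and 11293, 17736 and 21269 CPM in AD, a log2 fold change of 0.13 ± 0.20. miR-30a-5p was at 5706, 10020 and 20865 CPM in WT and 6017, 12152 and 17460 CPM in AD, a log2 fold change of 0.24 ± 0.23. For all of these the AD range lay inside the WT range. The largest estimate in size was that of miR-26a-2-3p, -0.67 ± 0.36, which rests on 4 to 34 reads per library.

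In PANDORA-seq no member was called either, and the direction of the smaller estimates depended on the scaling. The test covered 519 features and called 1 (0.193%), with an unadjusted p under 0.05 for 67 (12.9%). DESeq2 called 2 and edgeR's likelihood ratio test 3. None of the called features was a member by any of these tests. Of the 14 arms 5 had an unadjusted p under 0.05, all higher in AD. With the trimmed mean of M-values (TMM) scaling of this fit, which sets each library against the bulk of its miRNAs, all 14 log2 fold changes were above 0, as were 55.1% of those of all features, and their median was 0.45 against 0.05 over all features. With all reads assigned to miRNA features as the library size, an alternative chosen after seeing the data, 9 of 14 were above 0, their median was 0.08 against -0.17, and 1 arm had an unadjusted p under 0.05. On the CPM scale the AD mean was above the WT mean in 11 of the 14 arms, and it was below it for miR-30e-3p (1155 and 1218 CPM), miR-30c-2-3p (285 and 294 CPM) and miR-30e-5p (339 and 358 CPM). The family means in AD were 1.04 times (miR-26) and 1.11 times (miR-30) those in WT on that scale, and 1.33 and 1.46 times with all reads as the denominator. Without AD PANDORA-seq replicate 1 the TMM median was 0.16, miR-30c-2-3p was at -0.05 and 2 arms had an unadjusted p under 0.05. miR-30e-5p was at -0.065 without WT replicate 7, -0.027 without AD replicate 2 and -0.0082 without AD replicate 4.

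The 5 arms were miR-30b-5p, miR-30b-3p, miR-30c-1-3p, miR-30c-5p and miR-26b-5p, with an adjusted p between 0.329 and 0.359 in edgeR's quasi-likelihood test. miR-30b-5p, a minor carrier of the miR-30 seed, was at 8.92, 24.8 and 51.3 CPM in WT and 13.4, 39.4 and 103 CPM in AD, a log2 fold change of 1.20 ± 0.39. Its highest values were those of 3 AD libraries, above all WT libraries, and the other 5 overlapped with WT. miR-30c-5p was at 1274, 2610 and 4106 CPM in WT and 1927, 3703 and 4944 CPM in AD, a log2 fold change of 0.86 ± 0.33, and 4 AD libraries were above all of WT. Without AD replicate 1 its estimate was 0.49.

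The other 3 arms of the 5 are a pair of 3p strands and the minor paralog of miR-26a-5p. miR-30c-1-3p was at 26.4, 34.7 and 62.8 CPM in WT and 37.4, 61.3 and 71.3 CPM in AD, a log2 fold change of 0.87 ± 0.31, with 8 of 8 AD libraries above the WT median. miR-30b-3p was at 75.5, 102 and 128.4 CPM in WT and 85.03, 131 and 249 CPM in AD, a log2 fold change of 0.97 ± 0.34, and of 0.49 without AD replicate 1. miR-26b-5p was at 109, 151 and 226 CPM in WT and 120, 188 and 248 CPM in AD, a log2 fold change of 0.51 ± 0.22. All groups overlapped. AD replicate 1 was the highest of the 8 AD libraries for miR-30b-3p (249 CPM), miR-30c-5p (4944 CPM) and miR-26a-2-3p (85.2 CPM), and the lowest for miR-30e-5p (122 CPM).

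miRNA took a median of 2.28% of all reads in WT PANDORA-seq libraries (1.63% to 3.61%) and 3.12% in AD ones (1.51% to 5.54%, the highest in AD replicate 1), and the groups overlapped. In traditional-seq the medians were 44.6% in WT and 38.4% in AD. The part of this share in the members' values was not tested. Other 5p arms had smaller estimates, with a log2 fold change of 0.39 ± 0.34 for miR-26a-5p, 0.39 ± 0.27 for miR-30d-5p, 0.28 ± 0.22 for miR-30a-5p and 0.05 ± 0.23 for miR-30e-5p. Without AD replicate 1 the first 3 were at 0.13, 0.11 and 0.17.

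The genotype difference itself was then compared between protocols in 1 model with an interaction term. Of 695 features 0 were called (0.0%) by edgeR's quasi-likelihood test, an unadjusted p under 0.05 was found for 41 (5.9%), and DESeq2 and the likelihood ratio test called 1 each. Of the 15 arms that entered it 0 were called and 3 had an unadjusted p under 0.05. The genotype difference was higher in PANDORA-seq by 1.33 ± 0.52 on the log2 scale for miR-26a-2-3p, by 1.26 ± 0.59 for miR-30b-5p and by 1.11 ± 0.43 for miR-30c-1-3p, with an adjusted p of 0.772, 0.817 and 0.772 in edgeR's test. With miRNA feature reads as the library size 0 of the 15 arms had an unadjusted p under 0.05. The genotype effect was therefore not shown to differ between protocols for any member.

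**Figure D2:**
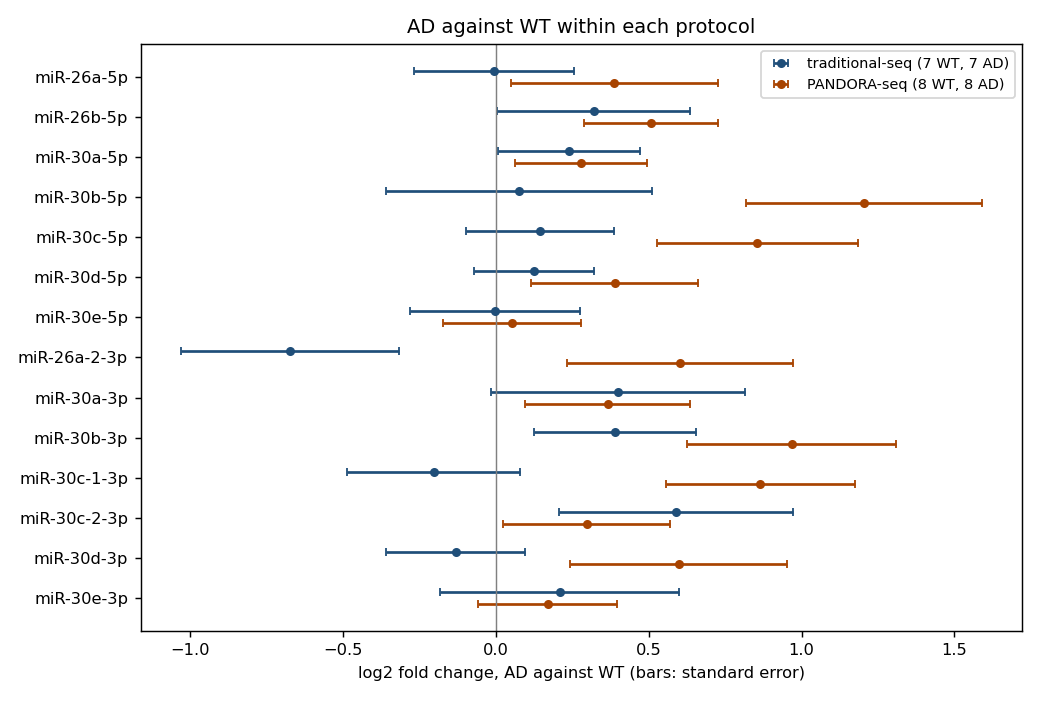
Log2 fold change of AD against WT for the 14 tested arms in traditional-seq (blue, 7 and 7 libraries) and PANDORA-seq (orange, 8 and 8), with bars of 1 standard error. With the TMM scaling plotted here the traditional-seq estimates lie on both sides of 0 and the PANDORA-seq estimates above it, where 9 of 14 were above 0 with miRNA feature reads as the library size, and no arm was called in either protocol.

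The protocols differed far more than the genotypes, and not evenly over the members. 5p arms fell and 3 rare 3p arms rose in PANDORA-seq relative to the other miRNAs. Of 629 features 538 were called (85.5%), 315 higher (50.1%) and 223 lower (35.5%), so a call by itself sets no member apart. At an unadjusted p under 0.05 the share was 86.0%, and with a fold over 2 besides the adjusted p it was 76.9%. Of the 14 arms 12 were called, 3 higher and 9 lower, of which 11 had a fold over 2, and 12 had an unadjusted p under 0.05. The median log2 fold change was -1.31 for them and 0.66 over all features. These values come from the TMM scaling.

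Among the 5p arms the drop ranged from 1.23 to 4.69 on the log2 scale. miR-30a-5p fell most, by 4.69 ± 0.18 (adjusted p = 8.1e-22 in edgeR's test), and its highest PANDORA-seq library (1183 CPM) was below its lowest traditional-seq library (5706 CPM). The mean was 14.1 times higher in traditional-seq among AD libraries and 13.6 times higher among WT libraries. The libraries of miR-26a-5p, miR-30d-5p and miR-30e-5p were separated in the same way, as were those of miR-384-5p outside the list. Such separation was not counted over all miRNA features. miR-30e-5p fell by 3.39 ± 0.19, miR-26a-5p by 3.07 ± 0.24, miR-30b-5p by 2.91 ± 0.34 and miR-26b-5p by 2.73 ± 0.20. miR-30d-5p fell by 2.10 ± 0.18 and miR-30c-5p by 1.23 ± 0.23, and the latter was no longer called with miRNA feature reads as the library size (-0.20, adjusted p = 0.331 in edgeR's test). miR-30a-5p and miR-30c-5p, which share their first 12 bases, were the extremes among the 5p arms.

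The 3p arms went either way. miR-26a-2-3p rose by 3.04 ± 0.32 on the log2 scale, from 0.873, 3.53 and 7.04 CPM in traditional-seq to 32.6, 43.2 and 85.2 CPM in PANDORA-seq. Reads of at least 30 nt, longer than the mature strand, were 47.9% ± 15.2 (SD) of its PANDORA-seq reads. miR-30c-1-3p rose by 1.79 ± 0.25, from 2.44, 6.99 and 14.9 CPM to 26.4, 41.8 and 71.3 CPM. miR-30b-3p rose by 1.32 ± 0.24, from 12.98, 26.9 and 50.9 CPM to 75.5, 116.5 and 249 CPM. In each of these 3 arms all 16 PANDORA-seq libraries were above all 14 traditional-seq libraries. For levels, such separation was not counted over all miRNA features, of which 50.1% were called higher and 35.5% lower.

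The other 3p arms did not rise relative to the bulk of miRNAs. miR-30e-3p fell by 1.39 ± 0.22 and miR-30d-3p by 0.78 ± 0.24. With miRNA feature reads as the library size neither was called, at -0.26 and 0.26 (adjusted p = 0.271 and 0.259 in edgeR's test). miR-30a-3p had a log2 fold change of 0.05 ± 0.24 and miR-30c-2-3p of -0.29 ± 0.23, which did not pass the test. Leaving out AD PANDORA-seq replicate 1 or AD traditional-seq replicate 2 made miR-30c-2-3p a called arm, at -0.50 and -0.48. With reads that fit more than 1 arm split equally between those arms, a fit over 836 features, both were called lower, miR-30a-3p at -0.70 and miR-30c-2-3p at -1.06 (adjusted p = 0.0071 and 9.8e-05 in edgeR's test), while the median of all features was 0.98. Mir30c-1 and Mir30c-2 make the same 5p strand, so their 3p strands, which differ by G9A, U12C and C22U, are what tells their reads apart. Mir30c-1 supplied a median of 4.47% of the miR-30c 3p reads in traditional-seq and 13.6% in PANDORA-seq. Within PANDORA-seq it was 11.1% in WT and 16.4% in AD, with WT replicate 3 at 21.8%. This share was not tested between protocols or genotypes.

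The direction of the rising arms depended on the scaling, and the protocols held different amounts of miRNA. With all sequenced reads as the library size the median log2 fold change of all features was -2.35, 13 members were called lower and 0 higher, and the estimates were -0.04 for miR-26a-2-3p, -1.69 for miR-30b-3p and -1.28 for miR-30c-1-3p. With miRNA feature reads as the library size the median of all features was 1.76. Then 5 arms were called higher, with miR-30a-3p at 1.13 and miR-30c-2-3p at 0.75 among them, and 6 lower. The 5p arms miR-26a-5p, miR-26b-5p, miR-30a-5p, miR-30b-5p, miR-30d-5p and miR-30e-5p were called lower under each of these scalings.

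The balance between the arms of a hairpin is a ratio within a library and needs no scaling. It moved to the 3p arm in PANDORA-seq at all 7 loci that could be tested, with the copies of miR-26a pooled and those of miR-30c pooled. Only exact matches were counted, so reads whose last 1 to 3 bases the hairpin does not encode were left out. Such reads were 17.4% to 36.1% of the members' reads in traditional-seq and 4.53% to 7.66% in PANDORA-seq, unevenly over the arms. Their part in the shift was not tested. Over all hairpins 134 of 182 changed by a permutation test with Benjamini-Hochberg adjustment (73.6%), 37.4% toward 3p. The 3p arm of Mir30a held 2.83%, 8.97% and 18.8% of the hairpin's reads in traditional-seq and 61.5%, 75.4% and 83.7% in PANDORA-seq. For Mir30b it held 4.93%, 21.1% and 38.8%, and 56.8%, 79.2% and 93.5%. At both loci the groups did not overlap, and the 5p strand gave most reads in traditional-seq while the 3p strand gave most in PANDORA-seq.

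Mir30e, which differs little from Mir30a in either strand, was already mixed in traditional-seq. Its 3p arm held 9.99%, 41.3% and 69.3% of reads there and 66.3%, 75.9% and 89.1% in PANDORA-seq, and the groups overlapped. At the remaining loci the 5p arm kept the majority. The 3p share went from a median of 3.73% to 10.5% for Mir30c and from 0.0602% to 0.147% for Mir30d. For the miR-26 loci it went from 0.0124% to 0.778% (Mir26a) and from 0.0416% to 1.66% (Mir26b), without overlap. The adjusted p was 0.00061 or lower at all 7, from 100000 shuffles whose smallest p is 1e-05. The groups did not overlap at 4 of the 7 loci and at 24.2% of all hairpins.

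**Figure D3:**
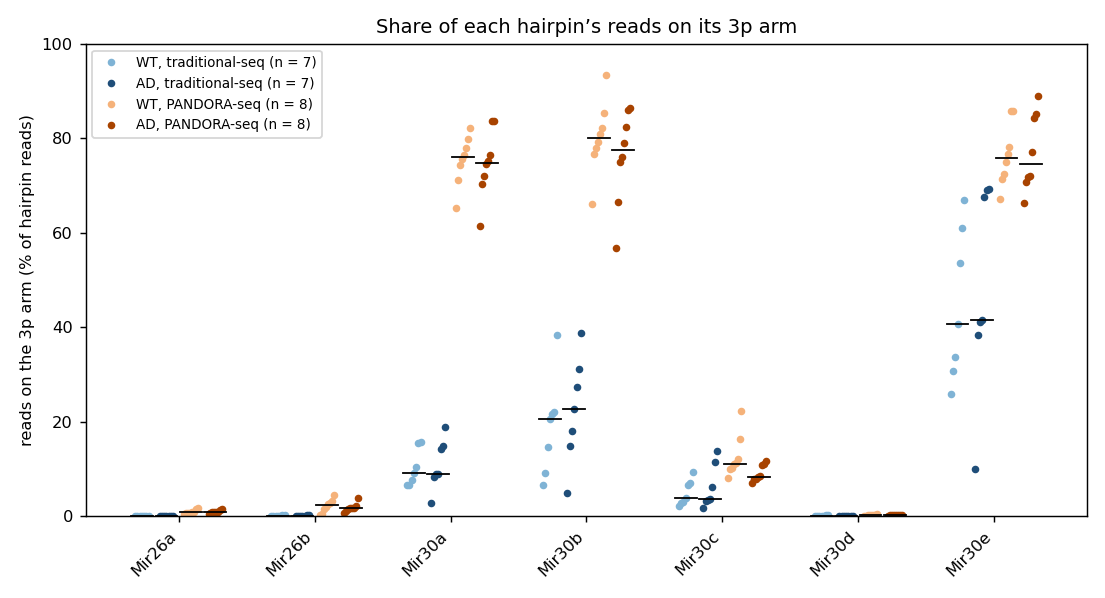
Share of each hairpin's reads that lies on its 3p arm, in percent, with 1 point per library and lines at group medians. Mir30a and Mir30b move from at most 38.8% in traditional-seq (blue) to at least 56.8% in PANDORA-seq (orange), and Mir26a, Mir26b and Mir30d stay near 0.

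The arm balance did not pass the test between genotypes at any locus (0.0% of the 182 hairpins were called in either protocol). The smallest unadjusted p in traditional-seq was that of Mir26a, whose 3p share was 0.0170% ± 0.00546 (SD, n = 7) in WT and 0.0103% ± 0.00446 in AD (exact permutation test, unadjusted p = 0.0315, adjusted p = 1.0). In PANDORA-seq it was that of Mir30c, whose 3p share was 12.6% ± 4.57 (SD, n = 8) in WT and 9.12% ± 1.78 in AD (exact permutation test, unadjusted p = 0.041, adjusted p = 0.815). Across arm balance, mean length, start and added bases, 0 of 38 member values were called between AD and WT in either protocol, against at most 0.457% of all features.

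Lengths also set the protocols apart. In traditional-seq 93.7% ± 2.37 (SD, n = 14) of miR-26a-5p reads were the full 22-nt strand. In PANDORA-seq 93.9% ± 1.24 (n = 16) were the 21-nt form without the last base, as the commonest forms show.
traditional-seq: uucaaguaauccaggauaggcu
PANDORA-seq: uucaaguaauccaggauaggc
miR-30a-5p and miR-30e-5p did the same from a longer form, and their commonest forms ran past the RefSeq end in either protocol. The commonest miR-30a-5p form was 24 nt long in traditional-seq (53.0% ± 13.2) and 23 nt long in PANDORA-seq (43.9% ± 7.19), and for miR-30e-5p the corresponding values were 75.7% ± 8.91 and 68.9% ± 4.16.
miR-30a-5p, traditional-seq: uguaaacauccucgacuggaagcu
miR-30a-5p, PANDORA-seq: uguaaacauccucgacuggaagc
miR-30e-5p, traditional-seq: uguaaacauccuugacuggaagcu
miR-30e-5p, PANDORA-seq: uguaaacauccuugacuggaagc
The seed at the 5′ end was whole in all of these forms.

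The commonest length was 1 nt shorter in PANDORA-seq in 11 of the 11 arms with at least 1000 reads in each protocol, and in 159 of all 229 such features (69.4%). miR-30c-5p went from 23 nt (73.4% ± 3.22) to 22 nt (64.8% ± 6.19). The 3p strand miR-30a-3p went from 22 to 21 nt, and miR-30b-3p from 21 to 20 nt. The mean length differed in 10 of the 10 arms tested, 9 of them shorter in PANDORA-seq, by the same permutation test (91.8% of all 219 features called, 81.7% shorter). The differences ranged from -1.60 nt for miR-30d-5p to -0.398 nt for miR-30e-5p among the shorter ones. How adapters were clipped in each protocol is not given in the sources used here, and a difference in clipping and one in the RNA ends cannot be told apart.

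miR-30e-5p also had a short form. A 17-nt form that ends after base 17 took 11.6% ± 6.72 of its traditional-seq reads, and its mean length changed by less than its commonest length. When the last base of every traditional-seq sequence was removed, an alternative chosen after seeing the data, the differences in mean length became 0.037 nt for miR-26a-5p, 0.157 nt for miR-30a-3p, 0.032 nt for miR-30e-3p and 0.461 nt for miR-30e-5p. In levels 12 members were called between protocols, and the largest move among the log2 fold changes was that of miR-30a-3p to -0.52 (adjusted p = 0.058 in edgeR's test).

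**Figure D4:**
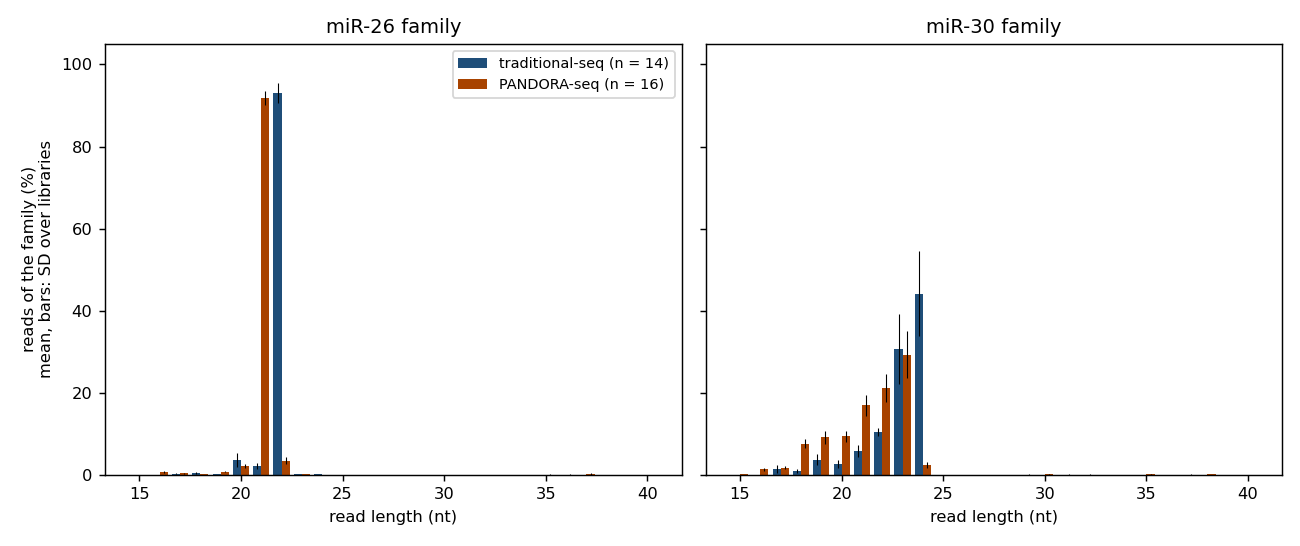
Read length (nt) of all reads of the miR-26 family (left) and the miR-30 family (right) as mean percent over libraries, with bars of 1 SD, for traditional-seq (blue) and PANDORA-seq (orange). miR-26 reads peak at 22 nt in traditional-seq (93.1%) and at 21 nt in PANDORA-seq (91.8%), while miR-30 reads are spread more widely and shift from 24 and 23 nt toward 23 and 22 nt.

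As families, miR-26 was more uniform in length than miR-30, and nearly all miR-26 reads were those of miR-26a-5p. On its own miR-26b-5p was spread in PANDORA-seq, with 40.9% ± 5.30 in a 21-nt form and 33.7% ± 5.52 in a 20-nt form. Reads of 20 to 24 nt were 99.2% of the miR-26 reads in traditional-seq and 97.6% in PANDORA-seq, and 93.8% and 79.2% of the miR-30 reads. For miR-30e-3p the 19-nt form took 32.3% ± 7.24 in traditional-seq and an 18-nt form took 26.3% ± 2.63 in PANDORA-seq, again 1 base apart.
miR-30e-3p, traditional-seq: cuuucagucggauguuuac
miR-30e-3p, PANDORA-seq: cuuucagucggauguuua

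The mean share of reads of at least 30 nt was higher in PANDORA-seq in 15 of the 16 arms, and it was 0 in either protocol for miR-30d-3p. This was not tested or counted over all miRNA features, so it does not set the members apart. For miR-26a-1-3p the higher share rests on 1 such read in all PANDORA-seq libraries, for miR-30b-5p on 2, for miR-26b-5p on 3 and for miR-30e-5p on 6. These reads made up 47.9% ± 15.2 of miR-26a-2-3p reads in PANDORA-seq libraries, against 19.7% ± 19.3 without the enzymes. The main long read spans the loop and the 3p strand of the Mir26a-2 hairpin, at 37 nt in PANDORA-seq (28.2% ± 11.5) and at 38 nt in traditional-seq (17.1% ± 17.7).
Mir26a-2 loop and 3p, PANDORA-seq: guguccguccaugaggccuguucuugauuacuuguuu
For miR-30b-3p such reads were 22.96% ± 6.24 in PANDORA-seq and 0.670% ± 0.963 in traditional-seq, and for miR-30c-1-3p 7.48% ± 3.47 and 0.542% ± 1.12. Arms not called higher in PANDORA-seq had them too, at 1.86% and 0.0616% for miR-30a-3p, 1.30% and 0.00486% for miR-30a-5p and 0.574% and 0.0% for miR-30e-3p. The share of 20.01% ± 20.5 for miR-26b-3p rests on 26 such reads in all. For miR-26a-5p they were at most 0.0248% in any library. When reads were limited to 18 to 25 nt, 12 members were called between protocols, 3 higher and 9 lower, as with all lengths.

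The start of the reads was compared as well. The share of reads at an arm's commonest first base was lower in PANDORA-seq in 9 of 10 arms and higher in 1, all called by the permutation test (of all features 70.3% were called and 57.1% were called lower). For the 5p strands these were shifts from near 100%: miR-26a-5p had a mean of 99.9% ± 0.024 in the traditional-seq group, against 99.8% ± 0.062 after the enzymes. The exception in size was miR-30b-3p, at 87.4%, 94.5% and 97.7% in traditional-seq and 53.5%, 65.3% and 74.8% in PANDORA-seq, without overlap. The groups did not overlap in 4 of the 10 arms and in 18.3% of all 219 features. With 18 to 25 nt only, 4 of the 10 arms were no longer called by the permutation test. They were miR-30b-3p (-2.12 percentage points, adjusted p = 0.101) and miR-26b-5p (-0.0996, adjusted p = 0.155), and miR-30a-3p (1.36, adjusted p = 0.176) and miR-30e-3p (0.172, adjusted p = 0.480), which turned to higher in PANDORA-seq.

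Finally, bases that the hairpin does not encode were counted. They are the last 1 to 3 bases of a read, after an exact match of at least 18 nt, and are called added bases here. A base changed or misread at the end of a read is counted in the same way and was not told apart. Terminal nucleotidyl transferases are known to add bases to mature miRNAs, and their part in these counts was not tested. Added bases were found on 17.4% to 36.1% of the members' reads in traditional-seq and on 4.53% to 7.66% in PANDORA-seq. They were lower in PANDORA-seq in 11 of 11 arms, as in 98.3% of all 242 features (99.2% called). When the last base of every traditional-seq sequence was removed, which by construction turns a read with 1 added base into an exact match, 0 of the 11 arms were called lower in PANDORA-seq, 5 were called higher and 6 were not called by the permutation test. The difference in mean share was then 12.8 percentage points for miR-30e-5p, 5.61 for miR-30a-5p, 4.49 for miR-30d-5p, 4.26 for miR-30a-3p and 0.720 for miR-26a-5p. Since reads with 1 added base are lost by construction, this shows only what a loss of the last base would do, and whether PANDORA-seq reads had lost it was not tested. As deposited, miR-30a-3p had the highest share in traditional-seq, 45.3%, 51.9% and 61.3%, and was at 8.31%, 10.1% and 15.3% in PANDORA-seq. There miR-30e-5p and miR-30e-3p had higher medians, 16.5% and 12.9%. miR-30c-5p went from a median of 22.7% to 0.837%, and miR-26a-5p from 22.7% to 3.93%. miR-30e-5p, with medians of 23.8% and 16.5%, was the only arm whose groups overlapped, against 74.8% of all features whose groups did not overlap.

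The added base differed between members. A single added U was on 39.0% of miR-30a-3p reads in WT and 43.2% in AD traditional-seq libraries (means), and on 26.8% and 32.8% of miR-30e-3p reads. On miR-30c-5p it was also mostly U, at 13.2% and 17.6%. On miR-26a-5p a single C was the commonest, at 9.57% in WT and 10.2% in AD, ahead of A at 5.41% and 6.11% and U at 3.85% and 4.06%. In PANDORA-seq a single U remained the commonest on miR-30a-3p, at 7.84% in WT and 7.85% in AD. The share of reads with added bases did not pass the test between genotypes for any arm in either protocol (0.0% of all features called).

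**Figure D5:**
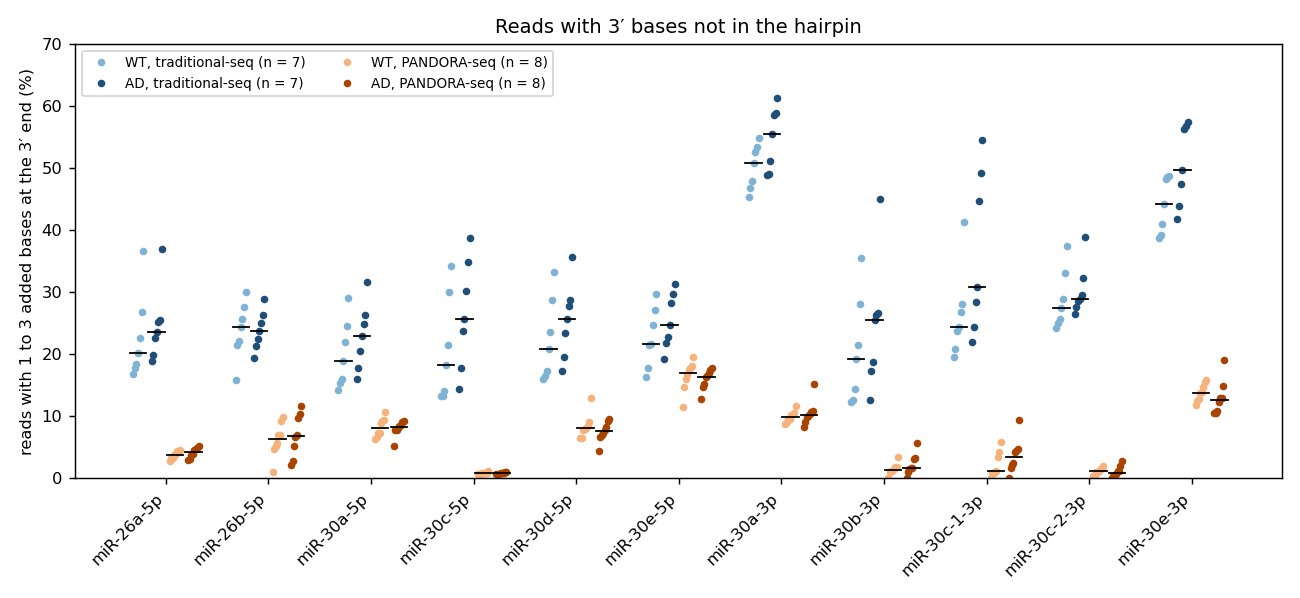
Percent of reads with 1 to 3 bases at the 3′ end that the hairpin does not encode, for the 11 arms with enough reads, with 1 point per library and lines at group medians. Traditional-seq libraries (blue) lie above PANDORA-seq libraries (orange) for every arm except miR-30e-5p, where they overlap (74.8% of all features did not overlap), and the 3p strands of Mir30a and Mir30e are highest in traditional-seq. The sequences are as deposited, and without the last base of the traditional-seq sequences 0 arms were called lower in PANDORA-seq.

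Only Mir384 outside the list carries the miR-30 seed in RefSeq (chrX:105344332-105344354, - strand, for its 5p strand), and it is shown to compare its seed with that of the miR-30 family.
miR-384-5p: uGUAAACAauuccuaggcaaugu
It was a small contributor, at 24.9, 61.0 and 122 CPM in traditional-seq and 1.21, 9.25 and 19.1 CPM in PANDORA-seq, and it fell by 3.88 ± 0.31 on the log2 scale. In PANDORA-seq its log2 fold change of AD against WT was 1.18 ± 0.40 (adjusted p = 0.329 in edgeR's test), and in traditional-seq -0.03 ± 0.32. Its values in WT PANDORA-seq libraries were 1.49, 6.91 and 10.7 CPM and in AD libraries 1.21, 16.4 and 19.1 CPM, and the groups overlapped.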

How the data were processed

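The deposited files hold, for each of 30 libraries, the count of reads of every distinct small RNA sequence. The authors kept 15 to 45 nt and collapsed identical reads, without normalization, and the clipping of adapters is not given in the sources used here. The authors annotated with SPORTS1.1 (1 mismatch), and the submitters' processing notes name build mm39.

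Sequences were matched without mismatch to the GENCODE M21 hairpins, and those that fit more than 1 arm were left out (at most 0.233% of member reads in a library, but of all miRNA hairpin reads 85.6% to 94.7% were kept as features in traditional-seq and 75.4% to 87.6% in PANDORA-seq). Counts over all features that passed filterByExpr (count minimum 10) were fitted with edgeR 4.0.16 (R 4.3.3, TMM, quasi-likelihood test) within each protocol, between protocols with genotype as a term, and for the interaction, with Benjamini-Hochberg adjustment over all features of a fit. Arm balance, mean length, commonest start and added bases were compared where each library had at least 20 reads, by permutation of the mean (3432 or 12870 exact splits between genotypes, 100000 shuffles between protocols), adjusted over all features of that measure and comparison. Family totals had no test. Alternatives were DESeq2 1.42.0, other library sizes, no filter, 18 to 25 nt, shared reads split equally, replicate numbers or sample codes as a block, and each library left out. Python 3.11.15, NumPy 2.4.6 and pandas 2.3.3 were used.

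On simulated data with 4-fold changes, 99 of 107 tested changed features were recovered in traditional-seq, 112 of 119 in PANDORA-seq and 144 of 146 between protocols, and 4, 3 and 5 unchanged features were called in the same order. Smaller changes, such as those estimated for the members between genotypes, were not simulated. Every arm was named whatever its test, with same-seed miRNAs and, for each family, the 3 miRNAs most like it. The members and lists were chosen with earlier results of these data known.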

Additional observations from a re-analysis of the deposited data

Results flagged for a closer look

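Within each of the 4 groups, a library was singled out where its distance to the nearest other value, over the range of the group, passed Dixon's 95% limit. Of 272 sets of values 26 did so, and chance alone gives about 1 in 20 (with low counts and related measures the sets are not independent). No explanation was tested for any of them.

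In levels, WT traditional-seq replicate 2 had the highest miR-30a-5p (20865 CPM, next 11361) and miR-30c-1-3p (14.9 CPM, next 8.49). AD traditional-seq replicate 2 had the highest miR-26b-5p (1144 CPM, next 675) and miR-30b-5p (326 CPM, next 161, and 0.954% of the family's 5p reads). AD PANDORA-seq replicate 5 had the highest miR-30e-3p (1933 CPM), AD PANDORA-seq replicate 3 the highest miR-26b-3p (8.44 CPM) and WT traditional-seq replicate 7 the highest miR-26a-1-3p (1.30 CPM, from 7 reads).

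WT PANDORA-seq replicate 6 stood apart 5 times. The miR-30 reads on 3p arms were 45.2% there (next 31.1%), while miR-30a-5p made up 17.4% of the miR-30 5p reads (next 8.98%). The miR-26 family was at 349 RPM, the Mir30d reads on the 3p arm were 0.416%, and 12.9% of its miR-30d-5p reads had added bases.

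Of the other shares with added bases, AD traditional-seq replicate 2 had 37.0% for miR-26a-5p, AD PANDORA-seq replicate 1 had 15.3% for miR-30a-3p, WT traditional-seq replicate 3 had 41.2% for miR-30c-1-3p, and AD PANDORA-seq replicate 6 had the lowest value for miR-30a-5p, 5.18%. WT traditional-seq replicate 3 also had the shortest miR-30e-3p reads, with a mean of 20.3 nt.

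Shares at the commonest start differed by small amounts. In AD PANDORA-seq replicate 3, the library with the fewest miRNA reads, they were 99.9% for miR-26a-5p and 93.6% for miR-30e-3p, and 3.72% of Mir26b reads were on the 3p arm. In WT PANDORA-seq replicate 3 they were 94.7% for miR-30e-3p and 96.6% for miR-30e-5p, and Mir30c-1 gave 21.8% of the miR-30c 3p reads. AD traditional-seq replicate 3 had 72.4% for miR-30a-3p and WT PANDORA-seq replicate 4 had 92.6% for miR-30c-2-3p.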

How the results depend on the processing

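No alternative made a member a call between genotypes. The number of all miRNA features called between AD and WT in PANDORA-seq was 1, and it became 3 (edgeR's likelihood ratio test), 2 (DESeq2), 15 (no filter on low counts), and 0 with all reads as the library size, with 18 to 25 nt and with replicate numbers blocked. In traditional-seq it ranged from 0 to 1 when each library was left out. For the interaction it was 0, with 1 by the likelihood ratio test, 1 by DESeq2 and 2 without the filter. Between protocols 1353 of 2351 features were called without the filter (538 of 629 with it), and 4 of 5 same-seed arms outside the list (2 of 2). The causes were not tested, beyond the number of features tested.

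Between protocols, all reads as the library size turned miR-26a-2-3p to -0.037, miR-30b-3p to -1.69 and miR-30c-1-3p to -1.28 on the log2 scale, and all miRNA feature reads as the library size (chosen after seeing the data) turned miR-30d-3p to 0.26. With shared reads split equally miR-30a-3p was called at -0.70 and miR-30c-2-3p at -1.06. With 18 to 25 nt, 23 of 27 tested shares and lengths were called (38 of 38 at all lengths, where added bases are included, which were not run at 18 to 25 nt), and the differences were -0.980 nt for the mean length of miR-30b-3p and 1.36 and 0.172 percentage points for the starts of miR-30a-3p and miR-30e-3p, which turned. Without the last base of each traditional-seq sequence (also chosen after seeing the data) the mean length differed by 0.0366 nt for miR-26a-5p, 0.157 for miR-30a-3p, 0.0325 for miR-30e-3p and 0.461 for miR-30e-5p, and the share with added bases turned to higher in PANDORA-seq, by 0.720 percentage points for miR-26a-5p, 4.26 for miR-30a-3p, 5.61 for miR-30a-5p, 0.777 for miR-30b-3p, 4.49 for miR-30d-5p and 12.8 for miR-30e-5p.

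Replicate numbers gave no clear pairing of WT with AD libraries. Deviations of same-numbered WT and AD libraries correlated at -0.45 to 0.44 in traditional-seq and -0.61 to 0.30 in PANDORA-seq, with 3 of 7 and 2 of 8 pairs over 0.1. Between protocols, same-numbered and same-code WT libraries gave the same correlations, -0.19 to 0.59. Whether these are the same mice is not given in the labels. With the replicate block 0 members were called between genotypes in either protocol, and 2 instead of 5 had an unadjusted p under 0.05 in PANDORA-seq. Between protocols 12 members and 466 of 569 features were called with the block, and 12 and 464 of 559 with the sample codes that recur between protocols as the block (same-code correlations -0.33 to 0.59, 3 of 7 pairs over 0.1 in either genotype). Depth limits the 3p strands of Mir26a-1 and Mir26b most, whose reads were 7 or fewer in each traditional-seq library.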

Other observations

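miRNAs whose level was most like that of a family across the 14 traditional-seq libraries were searched among 163 abundant features. Pearson's r is given as a description, since the libraries share protocol and depth. For miR-26 they were miR-181a-5p (0.91), miR-218-5p (0.91) and miR-16-5p (0.90), all abundant brain miRNAs, and over the 16 PANDORA-seq libraries the values were 0.46, 0.19 and 0.53. For miR-30 they were miR-23b-3p (0.81), miR-488-3p (0.78) and miR-383-5p (0.77), with 0.23, -0.59 and -0.27 in PANDORA-seq. They were chosen for their r in traditional-seq, so that a lower r in PANDORA-seq shows nothing of its own.

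The 3p strand of Mir384 was at a median of 47.5 CPM in traditional-seq and 5.41 CPM in PANDORA-seq, a fall by 4.04 ± 0.37 on the log2 scale. miR-6932-3p, which has the seed of miR-26a-2-3p, had 37 reads in all traditional-seq libraries and 59 in all PANDORA-seq libraries. Other same-seed strands had 8 reads or fewer in all.

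Markers of other cell types in CPM were present in either protocol. Endothelial miR-126a was at 5789 to 19425 in traditional-seq and 182 to 933 in PANDORA-seq, oligodendrocyte markers (2 of 2 names with reads) at 538 to 4115 and 1042 to 4019, and myeloid markers (4 of 4) at 115.6 to 1330 and 93.8 to 794. Smooth muscle markers (2 of 2) were at 3688 to 18076 and 962 to 13814, and erythrocyte markers (2 of 2) at 77.1 to 605 and 140 to 901. Their part in the members' values was not tested.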
